A study of Caenorhabditis elegans with 2 samples.

Results

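The sine oculis homeobox genes ceh-32, ceh-33, ceh-34 and unc-39 and the cofactor genes eya-1 and dac-1 of the nematode Caenorhabditis elegans were examined for occupancy by CEH-34, which is itself encoded by one of them. The 6 genes were taken by name from 19973 protein-coding genes on nuclear chromosomes. For each, every peak summit inside the gene body or within 5 kb on either side was listed, and all protein-coding genes were treated in the same way. Occupancy had been measured by chromatin immunoprecipitation and sequencing (ChIP-seq) with an anti-GFP antibody. All worms were hermaphrodites of strain OP524, which carries the unc-119(tm4063) allele on chromosome III and the integrated transgene wgIs524, a source of CEH-34 with a GFP-FLAG tag at its C-terminus. Whole late embryos were taken 3.5 hours after synchronisation by bleaching, in 1 group of 2 biological replicates, so there was no second condition to compare. Whole embryos mix many cell types, so a site occupied weakly in many cells and a site occupied strongly in a few cannot be told apart. The part of the ceh-34 locus held by the transgene, its copy number and its insertion site are not stated in the labels.

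Proteins of the sine oculis family share a conserved family domain, which contacts partner proteins, and a homeodomain, which binds DNA. Eyes absent proteins bind that domain and act as coactivators and phosphatases, and Dachshund proteins are nuclear cofactors of the same network, first described in the fly eye. In C. elegans, CEH-34 acts with EYA-1 in the pharynx, the feeding organ, where ceh-34 is required for the identity of pharyngeal neurons. CEH-33 is the closest relative of CEH-34, CEH-32 belongs to the Six3 and Six6 branch and UNC-39 to the Six4 and Six5 branch.

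The 6 genes fell into 3 pairs. The cofactor gene eya-1 held 3 of the authors' thresholded peaks and ceh-32 held 1, all 4 of them seen in both replicates, as were 95.5% of the whole thresholded list. At unc-39 and dac-1 there were only weak candidate peaks. At ceh-34 and its neighbour ceh-33 no list held any summit at all. A thresholded peak is one the authors kept by the irreproducible discovery rate, a measure of how repeatable the rank of a peak is. It need not be found in both replicate lists. A candidate peak is any peak of the longer lists from which these were drawn. The thresholded list held 2508 peaks, the pooled candidate list 29417, and the candidate lists of replicate 1 and replicate 2 held 21725 and 23509. Each peak has a signal value, the authors' height of the peak on a scale set per list, and ranks count from the strongest peak of a list. Thus 2 of 6 genes had a thresholded summit in the window, against 25.1% of all protein-coding genes. Within 1 kb of an annotated 5′ end the count was 1 of 6, against 8.65%. A pooled candidate summit lay in the window of 4 of 6 genes, against 82.8%, and within 1 kb of a 5′ end of the same 4, against 48.2%. None of these counts sets the 6 genes apart as a group, and the results lie in the differences among them.

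**Figure D1:**
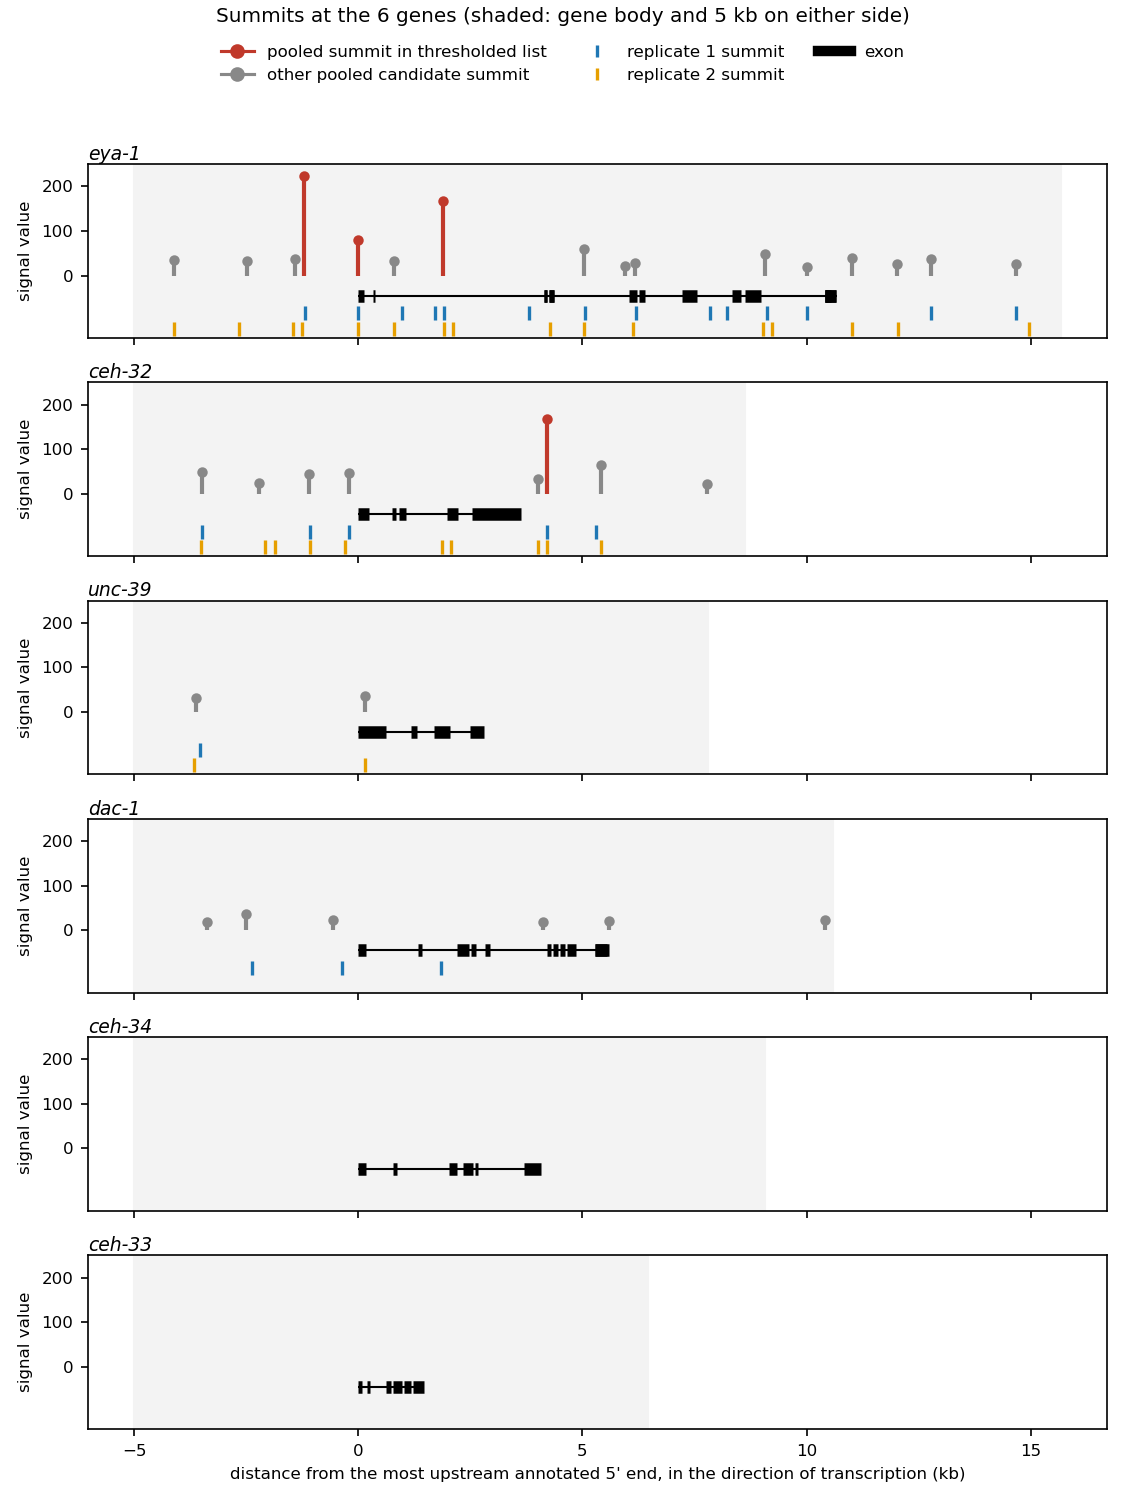
Summits at each of the 6 genes, with distance from the most upstream annotated 5′ end on the x axis (kb) and the pooled signal value on the y axis. Red stems are pooled summits in the thresholded list, grey stems are other pooled candidates, ticks below mark the summits of each replicate and black boxes are exons of all coding transcripts. The 3 red stems of eya-1 and the 1 of ceh-32 stand above the grey ones, and the panels of ceh-34 and ceh-33 are empty.

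At eya-1 (WBGene00001377, chromosome I, 14220693 to 14231360, minus strand), which encodes the Eyes absent partner of sine oculis proteins, the 3 thresholded peaks surrounded the start of the gene. The strongest had its summit at position 14232569, 1209 bp upstream of the 5′ end, in the space before the 3′ end of the next gene, clec-114, which lay 466 bp further on. Its signal was 224 in the pooled list (rank 276 of 29417), 110.0 in replicate 1 (rank 253) and 113 in replicate 2 (rank 327). It was thus among the strongest 0.938% of pooled, 1.17% of replicate 1 and 1.39% of replicate 2 peaks. The summits of replicates 1 and 2 were 18 and 52 bp from the pooled one, on opposite sides. That was the loosest placement among the 4 thresholded summits.

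A second summit lay at 14229462, in intron 1 of 8 of the longest transcript, 1898 bp after its 5′ end. Its signal was 168 in the pooled list (rank 569), 93.5 in replicate 1 (rank 388) and 69.7 in replicate 2 (rank 1023). Replicate 2 held another, slightly stronger summit of signal 75.7 (rank 858), 215 bp from the pooled summit. Replicate 1 also held a second summit nearby, at 14229653, but a weaker one (signal 21.7, rank 7822). Both replicates therefore showed a peak in this intron, with matched summits 15 bp (replicate 1) and 16 bp (replicate 2) from the pooled one.

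The third summit, at 14231366, was 6 bp upstream of the 5′ end and the weakest of the 3. Its pooled signal was 79.7, rank 2360 and so close to the end of the thresholded list, whose lowest signal was 76.5. It ranked 1910 in replicate 1 and 5773 in replicate 2, with signals of 44.4 and 27.2. Replicate 2 therefore placed this peak well outside its own 2508 strongest, and replicate 1 placed it inside. That cut was set here and is not how the authors made the thresholded list. Both stronger peaks were more than 1 kb from every annotated 5′ end of the gene, so a promoter window of that width contains neither. The order by the authors' −log10 q-value differed from the order by signal, with 2.95 for the upstream summit, 2.72 for the summit at the 5′ end and 2.58 for the intronic one.

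Having 3 or more thresholded summits in the window was uncommon, with eya-1 as 1 of 6 genes against 1.27% of all protein-coding genes. The cut of 3 equals the eya-1 count, so that eya-1 met it follows from the choice of cut. The eya-1 window of 20668 bp is long, and among the longest of 5 equal classes of window length (14321 to 112756 bp) the share was 3.18%. By its strongest pooled summit eya-1 stood at percentile 96.6 of all protein-coding genes and at percentile 94.6 of that length class. The percentile was 96.8 in replicate 1 and 95.9 in replicate 2. Its window also held 13 weaker pooled candidates, giving 7.74 candidates per 10 kb, a density above that of 98.4% of genes. The strongest of these 13 (signal 60.3, rank 3681) was in intron 3, 778 bp from the 5′ end of a shorter transcript, and both replicates held a summit within 28 bp of it. Further ones lay in the bodies of the neighbours best-11 and clec-114, nearest to the 5′ ends of those genes.

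At ceh-32 (WBGene00000453, chromosome V, 11701764 to 11705400, minus strand), the Six3 and Six6 type gene known for its part in head morphogenesis, the thresholded summit lay not at the start of the gene but 578 bp past its 3′ end. The summit was at position 11701186, 4214 bp from the 5′ end of ceh-32, which was nevertheless the nearest coding 5′ end. The signal was 168 in the pooled list (rank 567), 72.7 in replicate 1 (rank 714) and 93.0 in replicate 2 (rank 535). The replicate summits were 0 and 2 bp from the pooled one, the closest placement among the 4 thresholded summits. An annotated noncoding RNA, W05E10.7, ended 44 bp from it.

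Upstream of ceh-32 there was a row of weaker candidates. Those 201, 1098 and 3491 bp upstream of the 5′ end had pooled signals of 46.9, 44.0 and 49.2 (ranks 5677, 6350 and 5220), and each was found in both replicates. The replicate 2 summit of the first was 88 bp away, so with a limit of 50 bp that candidate was no longer found in both. It ranked 10679 in replicate 1 and 4937 in replicate 2, and the second ranked 6470 and 12311. All 3 upstream candidates lay inside annotated noncoding RNAs. In all, 4 of the 32 pooled summits at the 6 genes (12.5%) did, all at ceh-32, against 4.17% of all pooled summits. Past the 3′ end, a summit 1779 bp away (signal 64.5, rank 3299) was the strongest candidate at any of the 6 genes to miss the thresholded list. Replicate 2 had a summit 2 bp from it (signal 34.02), and the nearest of replicate 1 (39.2) was 105 bp away, just beyond the 100 bp that counts as shared. By its strongest pooled summit ceh-32 stood at percentile 93.1 of all genes, 91.3 in replicate 1 and 93.5 in replicate 2, and its 5.87 candidates per 10 kb exceeded the density of 91.6% of genes.

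The sequences of 101 bp centred on these summits are shown because ceh-32 is the one homeobox gene of the 6 with a thresholded peak, and because they show where the known recognition core of sine oculis proteins, TGATAC, does and does not occur. They are from the plus strand of ce11, 5′ to 3′, and capitals mark that core.
thresholded summit past the 3′ end, chrV:11701136-11701236: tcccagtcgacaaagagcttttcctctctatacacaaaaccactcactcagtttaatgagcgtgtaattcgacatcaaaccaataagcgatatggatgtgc
candidate 1779 bp past the 3′ end, chrV:11699935-11700035: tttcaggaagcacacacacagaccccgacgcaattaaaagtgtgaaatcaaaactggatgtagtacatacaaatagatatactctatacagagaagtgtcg
candidate 201 bp upstream, chrV:11705551-11705651: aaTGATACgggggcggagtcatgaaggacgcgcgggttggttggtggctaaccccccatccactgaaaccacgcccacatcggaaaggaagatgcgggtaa
candidate 1098 bp upstream, chrV:11706448-11706548: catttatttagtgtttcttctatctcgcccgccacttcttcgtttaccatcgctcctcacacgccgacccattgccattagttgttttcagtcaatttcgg
candidate 3491 bp upstream, chrV:11708841-11708941: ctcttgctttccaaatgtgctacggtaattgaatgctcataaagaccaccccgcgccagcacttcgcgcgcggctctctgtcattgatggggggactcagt

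The core TGATAC, searched on both strands, was in the window of 101 bp of 0 of the 4 thresholded summits and 1 of the 32 pooled summits at the 6 genes. That 1 is the promoter candidate of ceh-32, near the edge of its window. Over the whole lists the share was 3.21% of thresholded and 2.67% of pooled summits. The related site TCAGGTT was at none of the 32, against 1.21% of all pooled summits. No match says only that these letters are absent from these windows. The ceh-32 window as a whole held 12 TGATAC cores, or 8.8 per 10 kb, a density above that of 98.4% of genes, whose median was 3.58. The eya-1 window held 5, or 2.42 per 10 kb, below that median. The GA repeat GAGAGA, chosen after its frequency in these lists was known, was at 1 of the 4 thresholded summits, the one at the 5′ end of eya-1, against 28.8% of all thresholded summits. GC content in the same window was 53.5% and 49.5% at the eya-1 promoter and upstream summits, 41.6% at the ceh-32 summit and 34.7% at the eya-1 intronic summit. The quartiles of the thresholded list were 43.6% and 54.5%, so the last 2 lay below its lower quartile.

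The tagged gene itself, ceh-34 (WBGene00000455, chromosome V, 5315496 to 5319577, minus strand), had no summit in its body or within 5 kb in the thresholded, pooled, replicate 1 or replicate 2 list. The same was true of ceh-33 (WBGene00000454, chromosome V, 5323194 to 5324666, minus strand), whose 3′ end is 3617 bp from the 5′ end of ceh-34. The windows of these tandem genes overlap and together span 19171 bp, so they are not independent cases. Having no summit in any list was shared by 2 of 6 genes and by 8.31% of all protein-coding genes. In the length classes of ceh-34 and ceh-33 the shares were 6.16% and 12.9%.

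The stretch without candidates was much longer than the windows. In the pooled list the summits that flank ceh-34 were at 5300539 and 5400833, a gap of 100.3 kb, when the median distance between neighbouring pooled summits was 1706 bp. Of 29390 such gaps, 7 were at least as long, this one included, and 1.24% of protein-coding genes lay in them. In replicate 2 the gap was 101.6 kb, but in replicate 1 it was 49.75 kb, because a weak summit of that list (signal 16.2, rank 14868) lay at 5348139. In replicate 1, 51 gaps were at least as long and held 4.30% of protein-coding genes. The thresholded list was less striking. Its gap around ceh-34 was 230 kb, 37 of 2484 gaps were at least as long, and 14.6% of protein-coding genes lay in them. The stretch ran further on the upstream side of ceh-34 (81256 bp in the pooled list) than on the other (14957 bp), and held 20 protein-coding genes, among them the exchanger gene ncx-2, the receptor genes nhr-216, srd-9 and srg-25 to srg-29, ceh-33 and ceh-34.

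**Figure D2:**
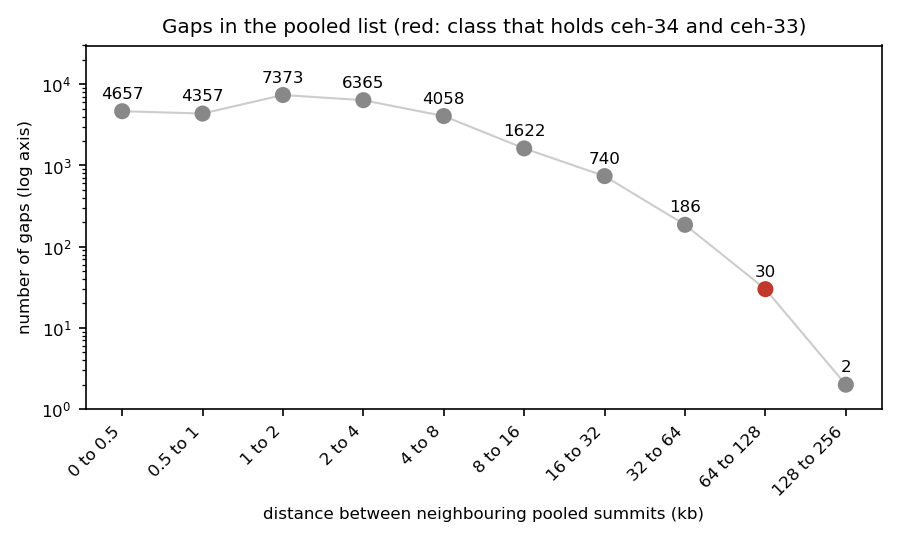
Distances between neighbouring summits of the pooled list, grouped by length in kb on the x axis, with the number of gaps in each class on a log y axis and printed above each point. The red point marks the class of 64 to 128 kb, with 30 gaps, which holds the gap of 100.3 kb around ceh-34 and ceh-33.

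Every word of 36 bases in the ceh-34 window occurred once in the reference genome, as did 98.9% of those in the ceh-33 window and 98.3% of those in the pooled stretch of 100.3 kb, and the 2 gene bodies shared no such word on the same strand. In the other windows the share was 97.0% (dac-1) to 100% (ceh-32 and unc-39). The word length was chosen here and is not the read length of the study. The reference does not hold the transgene. Extra copies of ceh-34 sequence in the strain can change the read density of the immunoprecipitate and of any input from the same strain, and their part in the absence of summits was not tested.

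The ceh-34 window held 4 TGATAC cores (2.84 per 10 kb) and the ceh-33 window 5 (4.36 per 10 kb), 3 of them shared between the overlapping windows. The windows without a summit were thus not without this core. The 4 cores of the ceh-34 window are shown with 10 bases on either side, each on the strand that reads TGATAC, with the core in capitals.
102 bp upstream of the 5′ end, chrV:5319669-5319694, minus strand: atggtagcatTGATACagtacgatct
2079 bp upstream, chrV:5321646-5321671, plus strand: tcattgaatcTGATACtgacactgaa
4976 bp upstream, inside an intron of ceh-33, chrV:5324543-5324568, minus strand: cttctgatatTGATACttaattttat
in an intron of ceh-34, chrV:5316354-5316379, plus strand: ggaaaatattTGATACataatttgtc

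Candidates at unc-39 (WBGene00006775, chromosome V, 14373074 to 14375881, plus strand), a gene known for mesoderm development and the migration of neurons, were few and weak. The stronger, in exon 1 of 4 and 156 bp after the 5′ end, had a pooled signal of 36.2 (rank 9116) and 21.4 in replicate 2 (rank 9430). Replicate 1 had no summit within 100 bp of it. The other, 3611 bp upstream, had a pooled signal of 30.8 (rank 12554), 17.8 in replicate 1 (rank 12234) and 14.3 in replicate 2 (rank 20437). Its replicate summits were 77 and 44 bp away on opposite sides, and with a limit of 50 bp it was no longer found in both. The strongest pooled summit put unc-39 at percentile 44.0 of all genes, 32.7 in replicate 1 and 42.1 in replicate 2. The unc-39 density of 1.56 pooled candidates per 10 kb exceeded that of 31.5% of genes.

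The Dachshund gene dac-1 (WBGene00000895, chromosome III, 816145 to 821730, plus strand) had 6 pooled candidates, with signals of 18.5 to 36.5 and ranks of 8984 to 28665, and neither replicate had a summit within 100 bp of any of them. Replicate 1 held 3 summits in the window, with signals of 13.6 to 23.0, of which the nearest was 133 bp from the strongest pooled summit. Replicate 2 held none, as was the case for 16.7% of all protein-coding genes. The strongest pooled summit lay inside the upstream neighbour daf-7, a gene for a TGF-beta type ligand. It put dac-1 at percentile 44.5 of all genes, but at percentile 25.2 among genes in the same class of window length. By number the pooled candidates were not few. The dac-1 density of 3.85 per 10 kb exceeded that of 71.6% of genes, with 1.93 in replicate 1 and 0 in replicate 2.

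**Figure D3:**
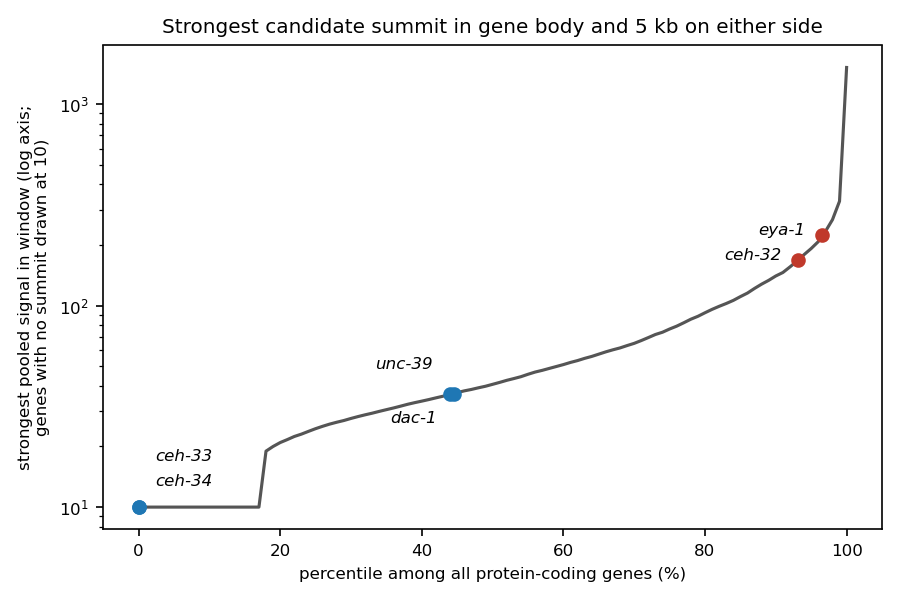
Strongest pooled signal in the gene body or within 5 kb on either side (log y axis) against its percentile among all protein-coding genes (x axis, %). The grey line is all genes, with those that have no summit drawn at 10. Red points are eya-1 (percentile 96.6) and ceh-32 (93.1), blue points are dac-1 (44.5), unc-39 (44.0) and, at 0, ceh-34 and ceh-33.

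Over the 6 genes the median percentile of the strongest pooled summit was 44.2, and the median density was 2.71 pooled candidates per 10 kb against 2.57 over all genes (quartiles 0.902 and 4.15). Neither median was stable between replicates. The median percentile was 41.5 in the list of replicate 1 and 21.0 in that of replicate 2. The median density was 1.35 per 10 kb in replicate 1, against 1.80 over all genes, and 0.781 in replicate 2, against 1.86, so in each list alone it lay below that of all genes. The order of the genes by strongest pooled summit was eya-1, ceh-32, dac-1, unc-39, and last ceh-34 and ceh-33 with none. In each replicate list alone eya-1 stayed ahead of ceh-32, at percentiles 96.8 and 91.3 in replicate 1 and 95.9 and 93.5 in replicate 2. The order of dac-1 and unc-39 was not stable, since dac-1 had no summit in replicate 2.

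The replicates differed mostly at the weak candidates. Of the 32 pooled summits at the 6 genes, 11 (34.4%) had a summit within 100 bp in each replicate, against 26.4% of the whole pooled list. Another 3 were found in replicate 1 only, 8 in replicate 2 only and 10 in neither, which can occur because the pooled list was called on both alignments together. Among the 10 summits in the strongest 25% of the pooled list, 9 were found in both, against 78.2% of all pooled summits of that strength. Among the 22 weaker ones, 2 were, against 9.19%. The 11 summits were 6 at eya-1, 4 at ceh-32 and 1 at unc-39. Counted by gene, 3 of 6 had a pooled summit found in both replicates, against 52.4% of all protein-coding genes. Taken alone, the replicate 1 list had a summit in 4 of 6 windows, against 82.9% of genes, and the replicate 2 list in 3 of 6, against 83.3%.

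**Figure D4:**
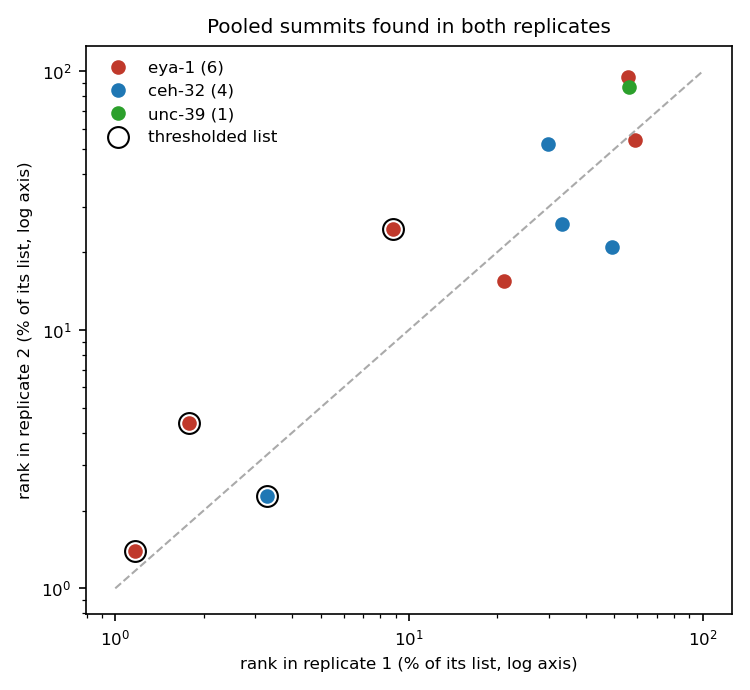
Rank in replicate 1 (x axis) against rank in replicate 2 (y axis), each as a percentage of its list on a log axis, for the 11 pooled summits at these genes that were found in both replicates. Circled points are the 4 thresholded summits, of which 3 rank within 4.35% in both lists, while the summit at the 5′ end of eya-1 ranks at 8.79% in replicate 1 and 24.6% in replicate 2.

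A list of related genes, put together here, gave a similar share. Of 21 related genes (Pax genes, regulators of the mesodermal M lineage, homeobox genes of pharyngeal neurons and the cell death gene egl-1), 6 had a thresholded summit in the window, against 25.1% of all genes, and 2 had one within 1 kb of a 5′ end, against 8.65%. The strongest was at eyg-1, a Pax-type gene, with a signal of 163 (rank 607) at a summit 394 bp past the 3′ end. For let-381, a forkhead gene known to act upstream of ceh-34 in the M lineage, the signal was 145 (rank 772), 2524 bp upstream and only 78 bp from the 5′ end of F26B1.1. The pharyngeal neuron gene ceh-45 had 141 (rank 838) at 1730 bp past its 3′ end. For egl-1, a cell death activator, the signal was 91.6, with F23B12.1 holding the nearest 5′ end, and for ceh-28 it was 83.4, with K03A11.4 nearest. The weakest was at ceh-2 (81.1), 632 bp upstream, and it was not found in both replicates. The other 15 genes, vab-3, unc-86, ttx-3 and lin-39 among them, had no thresholded summit in the window.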

How the data were processed

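ChIP-seq peak lists from 2 replicates of 1 group were used. Per the file lists deposited beside them, candidates were called on each replicate and on both together, and the irreproducible discovery rate then gave the thresholded list. The aligner and peak caller are not named in those sources. The authors deposited a signal value per peak, whose scale holds within one list only. The deposited −log10 q-value was only described. The control that the labels name was not used here. The lists give no read depth, so depth, and with it the counting error of a signal value, is unknown.

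Genes came from Ensembl release 115 and sequences from RefSeq, both of assembly WBcel235 (ce11 coordinates). The ce10 lists were not used. A summit is the peak start plus the summit offset, written from 1. Windows were the gene body with 5 kb on either side, 5′ ends were those of coding transcripts, and summits within 100 bp counted as shared. Ranks include mitochondrial peaks. Percentiles give the share of protein-coding genes with a lower strongest signal, genes with no summit being lowest. No test was made: with 1 group, counts are set against all protein-coding genes. None of the summits at the 6 genes lay within 200 bp of a tRNA, rRNA, snRNA or snoRNA gene. The named genes are the 6, the related genes with a thresholded summit, and the nearest coding gene of the leading summits; other names were chosen after their values were seen. The 6 genes, the related list, the motifs and the windows were chosen with earlier results of these data known. The gap around ceh-34, the words of 36 bases and the noncoding RNA counts were added after seeing the data. The comparison by 3 or more thresholded summits was not planned beforehand. Alternatives were flanks of 2 and 10 kb, the gene body alone, distances of 500 and 2000 bp and other limits for shared summits. Others were the stronger 50% of the thresholded list, each replicate alone, classes of window length and motif windows of 25 and 100 bp. Summits near tRNA, rRNA, snRNA or snoRNA genes were also left out. For a replicate alone, its 2508 strongest peaks replaced the thresholded list and its full list replaced the pooled one. Counters were tested on simulated data. Python 3.11.15 with numpy 2.4.6 and pandas 2.3.3 was used, and figures were drawn with matplotlib 3.10.9.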

Additional observations from a re-analysis of the deposited data

How the results depend on the processing

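Of 46 recomputed values, 31 were labelled unchanged and 15 moved. Counts were labelled by a limit of 1.5 times the reported count, and percentiles by the spread between replicates. For each gene, the percentile without 1 replicate was the value of the other replicate itself. The labels of those percentiles are therefore no separate check. The dac-1 percentile without replicate 1, for example, was labelled moved although it was the replicate 2 value. Some values could not change. No list held a summit at ceh-34 or ceh-33, and no summit at the 6 genes lay within 200 bp of a tRNA, rRNA, snRNA or snoRNA gene. The count of 2 genes with a thresholded summit became 1 with the gene body alone, since the ceh-32 summit lies past the gene. For the gene body alone the share of all protein-coding genes was 3.3%. The count was 2 in every other setting run, while that share changed. It was 15.7% with flanks of 2 kb, 37.8% with 10 kb and 14.2% with the stronger 50% of the thresholded list. The 1 gene with a summit within 1 kb of a 5′ end became 0 with the stronger 50% of the thresholded list, against 4.57% of all genes. The count was 1 in the 2508 strongest peaks of replicate 1, against 8.88%, and 0 in those of replicate 2, against 8.31%. The eya-1 promoter call was thus lost without replicate 1. Within 5 kb, eya-1 and ceh-32 kept a summit in either replicate's 2508 strongest, against 25.4% of all genes in replicate 1 and 24.6% in replicate 2. With flanks of 2 kb the 32 pooled summits became 21. Leaving out a replicate gave a median percentile of the strongest summit of 21.04 to 41.51 (reported, 44.2), a median density of 0.7808 to 1.353 per 10 kb (2.71) and a stretch without candidates around ceh-34 of 49.75 to 101.6 kb (100.3). The low percentile without replicate 1 goes with the absence of dac-1 summits in replicate 2. The 1 pooled summit with a sine oculis motif became 0 within 25 bp and 4 of 32 within 100 bp, all by TGATAC. That core was within 25 bp of 1.44% of all pooled summits and within 100 bp of 5.53%. No paired analysis was possible because there is 1 group. With 2 libraries and no read depth, absence of a summit means only that none was listed.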
